A study of Mus musculus with 29 samples.

Results

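The genes described here encode the liver enzymes that turn cholesterol into bile acids and join them to an amino acid, together with 1 repressor of that pathway. They are the 10 listed rows Cyp7a1, Cyp7b1, Cyp8b1, Cyp27a1, Hsd3b7, Akr1d1, Amacr, Slc27a5, Baat and Nr0b2, chosen by symbol among 22187 gene IDs of a table of CPM (counts of each library scaled to a common total). All 10 were found, and all 10 passed the filter on low values in every fit.

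The libraries came from C57BL/6 mice injected i.p. with 25 mg/kg of the liver carcinogen DEN at 2 weeks of age, and DEN is shared by every group. Tumours were sequenced from mice labelled IL17RA-/- on alcohol (4 libraries) and on HFD (3), and from WT mice on alcohol (3) and on HFD (3). Non-tumour liver was sequenced from mice labelled IL17RA-/- on alcohol (5) and on HFD (3), and from WT mice on alcohol (5) and on HFD (3). The labels give the diets as HFD_alcohol and HFD, whereas the series text speaks of ethanol in a liquid diet or pair-feeding over 18 weeks; the sample labels were used. IL17RA is a subunit of the receptor for IL-17A. No label says which libraries came from separate animals or from the same one, so each p-value reflects only how far the libraries of a group lay apart, which may be technical.

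Bile acids are made in hepatocytes, and the routes differ in their first step. In the classical route Cyp7a1 hydroxylates cholesterol, and this step limits the rate; in the alternative route the mitochondrial enzyme Cyp27a1 oxidises the side chain first and Cyp7b1 then hydroxylates the ring. Hsd3b7 and Akr1d1 modify the steroid ring in both routes, Cyp8b1 adds the hydroxyl group that makes cholic acid, and Amacr prepares the side chain for shortening in peroxisomes. Slc27a5 activates the finished bile acid with coenzyme A, and Baat joins it to taurine, the main partner in mice, or glycine. Bile acids feed back through the receptor FXR (Nr1h4), which induces Nr0b2 (SHP), a repressor of Cyp7a1 and Cyp8b1.

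Recovered depth was 3213696 to 9169116 counts in tumour and 4653422 to 9660584 counts in non-tumour libraries, so that 3 counts stood for 0.311 to 0.934 CPM. The lowest member value, 13 counts of Cyp7b1 in 1 tumour, lay above that limit. Tumour markers of this model rose in tumours on average (Afp, Gpc3, Prom1 and Igf2, 4 of 4 tested), but only Prom1 separated the tissues without overlap. Afp reached 155 CPM and Gpc3 263 CPM in non-tumour libraries, against 105 to 559 and 66.3 to 401 CPM in tumours. Igf2 was low, at 5.29 CPM or below. The hepatocyte markers Alb and Apoa1 were abundant in all 29 libraries. Of the listed hepatocyte markers, Alb, Apoa1 and Apob had a higher mean in tumours than in non-tumour liver. Ttr, Serpina1c, Tat, Cps1 and Asgr1 had a lower one. Cps1 had means of 1960 CPM in tumours and 5370 CPM in non-tumour liver, without overlap. Il17ra itself was not lower in libraries labelled IL17RA-/-, with 54.4 to 62.9 CPM in IL17RA-/- and 22.9 to 48.5 CPM in WT tumours on HFD, and 15.9 to 37.0 CPM in IL17RA-/- and 16.1 to 42.5 CPM in WT non-tumour liver on alcohol. The genotype is therefore given as labelled. Library 4 of the WT HFD tumours stood apart from the other tumours, and an earlier look at these data had also doubted IL17RA-/- alcohol tumour 5, IL17RA-/- HFD non-tumour 3 and WT HFD non-tumour 1.

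The synthesis and conjugation enzymes were lower in tumours, all 9 of them, while the repressor Nr0b2 did not pass the test. Averaged over the 4 combinations of genotype and diet, limma on log2(CPM + 1) called 9 of 10 members lower in tumours than in non-tumour liver, where 27.0% of 13586 genes tested were called lower (63.6% in either direction). A call is a Benjamini-Hochberg adjusted p under 0.05 over all genes tested. The median log2 fold change was -2.15 over the members and 0.0888 over all genes. Summed over the 9 enzymes, tumours held 392 to 1529 CPM (median 572) and non-tumour livers 1854 to 3751 CPM (median 3308), without overlap. In bulk liver, fewer cells of a type and less RNA per cell cannot be told apart.

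**Figure D1:**
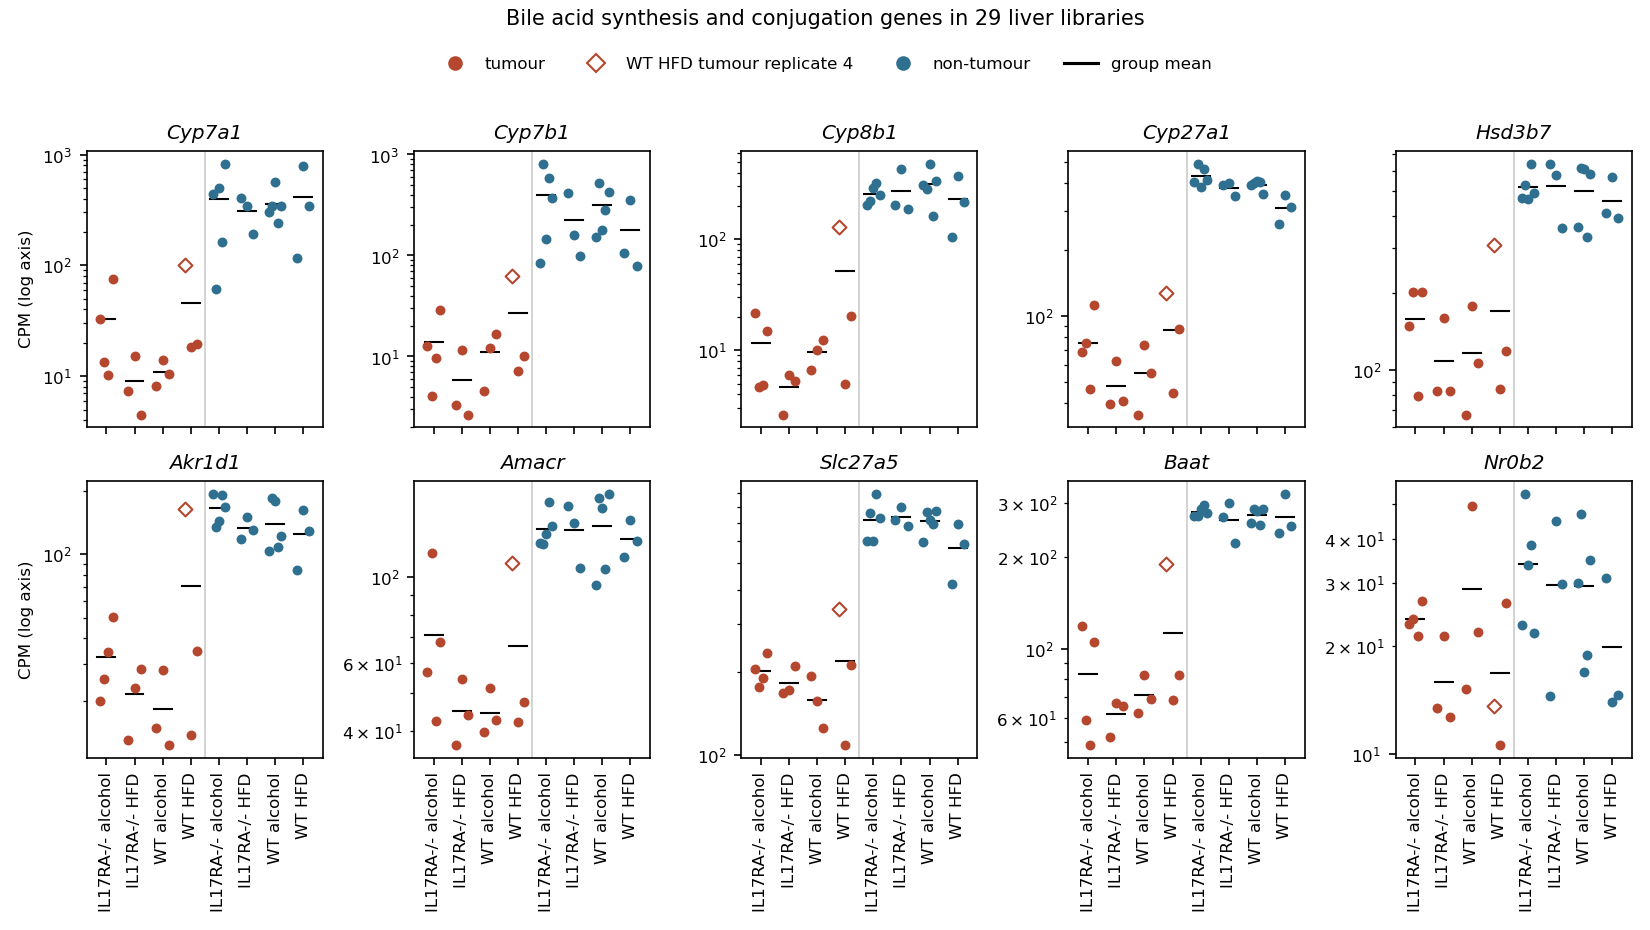
CPM on a log axis for the 10 genes in each library, with tumour groups (red) left of non-tumour groups (blue) and a line at each group's mean. The open diamond is WT HFD tumour 4, the highest tumour for 8 of the 10 genes; Cyp7a1, Cyp7b1 and Cyp8b1 show the widest gap between tissues and Nr0b2 none.

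The gap was widest for the 3 cytochromes that set the amount and the kind of bile acid. Cyp7a1 (ENSMUSG00000028240, GRCm38 chromosome 4, 6265612 to 6275633, minus strand), the rate-limiting hydroxylase, was at 32.7, 13.4, 10.3 and 75.9 CPM in IL17RA-/- alcohol tumours, against 444, 60.8, 497, 162 and 828 CPM in non-tumour liver. On HFD the IL17RA-/- values were 7.34, 15.3 and 4.50 CPM in tumours and 403, 343 and 191 CPM in non-tumour liver. Only in the first of these groups did the tissues overlap, since non-tumour library 2 at 60.8 CPM lay below tumour library 7. In WT mice on alcohol Cyp7a1 was at 8.12, 14.1 and 10.5 CPM in tumours, against 303, 345, 569.6, 239.5 and 340.0 CPM in non-tumour liver. On HFD the WT values were 100.5, 18.4 and 19.6 CPM in tumours and 116, 782 and 341 CPM in non-tumour liver. The high value is tumour 4, which came close to the lowest non-tumour library of its group without reaching it. The mean log2 fold change of Cyp7a1 was -4.15 ± 0.37 (SE; adjusted p = 7.26e-10, limma), and the mean tumour level was 6.82% of the mean non-tumour level.

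Cyp7b1 (ENSMUSG00000039519, chromosome 3, 18071950 to 18243338, minus strand), the oxysterol hydroxylase of the alternative route, separated the tissues in all 4 combinations. It was at 12.8, 4.03, 9.60 and 28.6 CPM in IL17RA-/- alcohol tumours, against 84.7, 811, 145, 588 and 369 CPM in non-tumour liver. On HFD it was at 3.33, 11.5 and 2.66 CPM in IL17RA-/- tumours, against 418, 159 and 99.1 CPM in non-tumour liver. Every one of these tumours lay below every non-tumour library, although non-tumour values themselves ranged widely. In WT mice on alcohol it was at 4.60, 12.1 and 16.5 CPM in tumours, against 152, 519, 179, 284 and 429 CPM in non-tumour liver. On HFD it was at 62.9, 7.10 and 10.03 CPM in WT tumours, against 105, 357 and 78.4 CPM in non-tumour liver. The 13 tumours were all below the 16 non-tumour libraries, a pattern that 3.30% of the genes tested showed. Its mean log2 fold change was -4.33 ± 0.39 (adjusted p = 7.85e-10, limma), with tumours at a mean of 4.78% of the non-tumour mean.

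Cyp8b1 (ENSMUSG00000050445, chromosome 9, 121914356 to 121916305, minus strand), whose activity sets the share of cholic acid, had the most negative mean fold change of the members, -4.50 ± 0.32 on the log2 scale (adjusted p = 1.59e-11, limma). It was at 21.9, 4.68, 4.86 and 14.9 CPM in IL17RA-/- alcohol tumours, against 206, 221, 293, 324 and 249 CPM in non-tumour liver. On HFD it was at 2.63, 5.95 and 5.31 CPM in IL17RA-/- tumours, against 204, 430.0 and 188 CPM in non-tumour liver. In both of these groups each tumour was far below each non-tumour library. In WT mice on alcohol it was at 6.63, 10.05 and 12.4 CPM in tumours, against 308, 284, 482, 164 and 333 CPM in non-tumour liver. On HFD it was at 129.6, 4.99 and 20.5 CPM in WT tumours, against 105, 372 and 217 CPM in non-tumour liver. Tumour 4 alone reached the non-tumour range; the other 12 tumours were at 21.9 CPM or below. The order of the 3 mean fold changes was not tested, and their standard errors overlap.

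Cyp27a1 (ENSMUSG00000026170, chromosome 1, 74713574 to 74737892, plus strand), the side-chain hydroxylase that opens the alternative route, was between 35.6 and 127 CPM in tumours (median 62.7, n = 13), against 261 to 492 CPM in non-tumour liver (median 398, n = 16). The tissues did not overlap in any combination of genotype and diet, and non-tumour values were tight. Its mean log2 fold change was -2.60 ± 0.13 with an adjusted p of 1.3e-13 (limma), the smallest among the members.

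The ring-modifying enzymes followed with smaller differences. Hsd3b7 (ENSMUSG00000042289, chromosome 7, 127800604 to 127803802, plus strand) was between 66.9 and 306 CPM in tumours (median 119, n = 13), against 332 to 639 CPM in non-tumour liver (median 508, n = 16), with a mean log2 fold change of -1.96 ± 0.19 (adjusted p = 2.43e-09, limma). Its exons share 1717 bases with Gm49388 on the same strand and 1729 bases with 9430064I24Rik on the opposite strand, and how the counting treated them is not given in the sources used here, so its level is uncertain. Akr1d1 (ENSMUSG00000038641, chromosome 6, 37530173 to 37568815, plus strand), the reductase that bends the steroid ring, was at 164, 13.9 and 34.6 CPM in WT HFD tumours, against 84.6, 162 and 128 CPM in non-tumour liver. Those groups overlapped because tumour 4 was the highest of all 6 libraries. Across the other 12 tumours Akr1d1 stayed between 12.4 and 50.4 CPM, below the lowest non-tumour library at 84.6 CPM. Its mean log2 fold change was -2.34 ± 0.24 (adjusted p = 6.35e-09, limma).

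The side-chain and conjugation enzymes were also lower in tumours. Amacr (ENSMUSG00000022244, chromosome 15, 10981756 to 10996626, plus strand), the racemase, was between 36.7 and 116 CPM in tumours (median 47.4, n = 13), against 95.6 to 164 CPM in non-tumour liver (median 133, n = 16), with a mean log2 fold change of -1.28 ± 0.14 (adjusted p = 1.76e-08, limma). This was the smallest difference among the 9 enzymes, and 2 tumours, IL17RA-/- alcohol 5 and WT HFD 4, lay within the non-tumour range. Slc27a5 (ENSMUSG00000030382, chromosome 7, 12988346 to 12998192, minus strand), the bile acid coenzyme A ligase, was between 108 and 340.0 CPM in tumours (median 191, n = 13), against 419 to 894 CPM in non-tumour liver (median 706, n = 16). Baat (ENSMUSG00000039653, chromosome 4, 49489422 to 49506557, minus strand), which makes the taurine conjugate, was between 48.9 and 189 CPM in tumours (median 68.5, n = 13), against 222 to 321 CPM in non-tumour liver (median 276, n = 16). For both, every tumour was below every non-tumour library, with mean log2 fold changes of -1.87 ± 0.12 for Slc27a5 (adjusted p = 3.19e-12) and -1.81 ± 0.13 for Baat (adjusted p = 1.48e-11, both limma).

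Nr0b2 (ENSMUSG00000037583, chromosome 4, 133553376 to 133556536, plus strand) was between 10.6 and 49.3 CPM in tumours (median 21.4, n = 13), against 13.97 to 53.3 CPM in non-tumour liver (median 29.9, n = 16). Of the 13 tumours, 9 lay at or above the lowest non-tumour library. Its mean log2 fold change was -0.38 ± 0.21 (95% interval -0.81 to 0.04, adjusted p = 0.105, limma), so a fall of up to 0.81 on the log2 scale lies within the interval. The mean passed the test when WT alcohol tumour 5 was left out (log2 fold change -0.50, adjusted p = 0.0314), and likewise without WT HFD tumour 6 (-0.47, adjusted p = 0.0474) or IL17RA-/- HFD non-tumour 1 (-0.49, adjusted p = 0.0367). These were 3 of 36 recomputed settings. Over all of them the log2 fold change ran from -0.50 to -0.25 and the adjusted p (limma or limma-voom) from 0.0314 to 0.619.

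**Figure D2:**
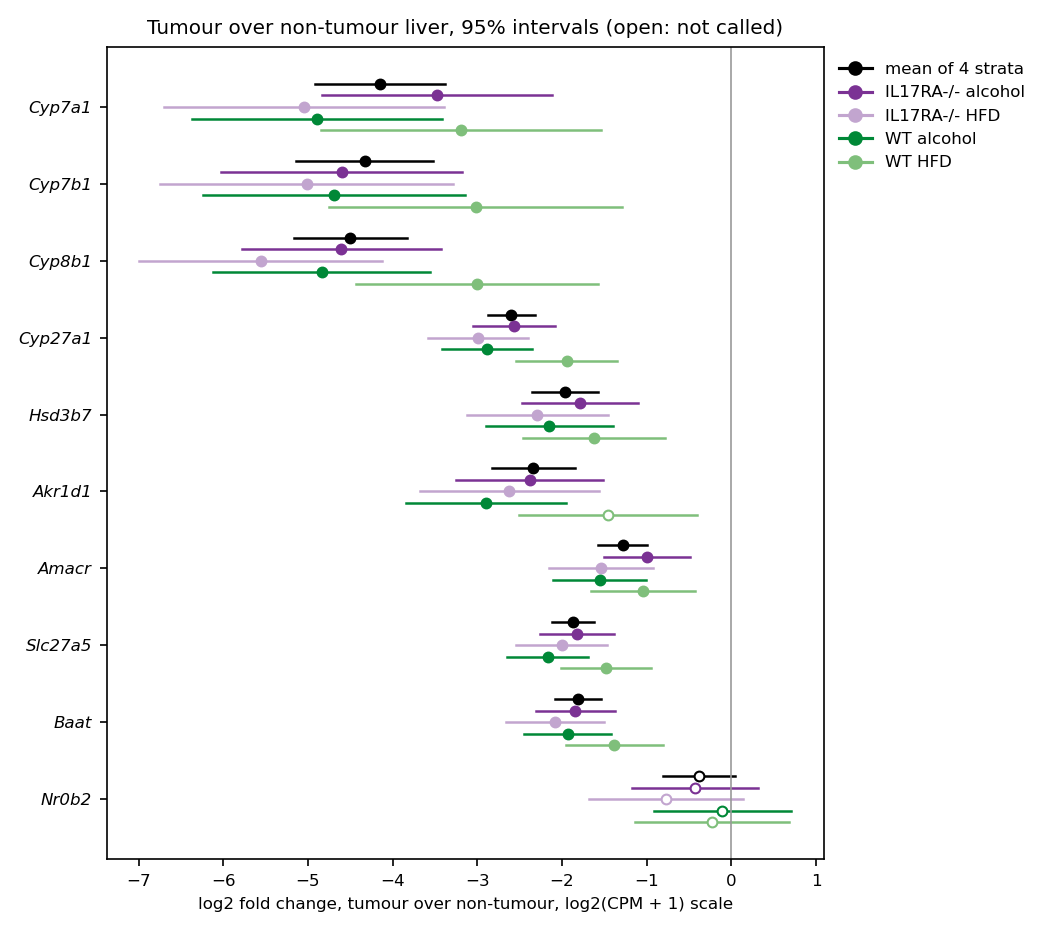
Log2 fold change of tumour over non-tumour liver on the log2(CPM + 1) scale with 95% intervals, for each gene as the mean of 4 strata and in each combination of genotype and diet. Filled points were called at an adjusted p under 0.05; the mean estimates run from -4.50 for Cyp8b1 to -0.38 for Nr0b2, and WT HFD lies nearest 0 for 8 of the 10 genes.

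In the single combinations limma called 9 members lower in IL17RA-/- alcohol (background 18.1% of genes), 9 in IL17RA-/- HFD (16.5%), 9 in WT alcohol (19.2%) and 8 in WT HFD (7.61%). The groups did not overlap, with tumours lower, for 8 members in IL17RA-/- alcohol (14.5% of genes), 9 in IL17RA-/- HFD (22.3%), 9 in WT alcohol (20.0%) and 7 in WT HFD (10.3%). In WT HFD the member not called beside Nr0b2 was Akr1d1, with a log2 fold change of -1.46 ± 0.51 (adjusted p = 0.0554). Without tumour 4 its value was -2.40 (adjusted p = 0.000117), and 9 members were called lower (11.7% of genes). Leaving out WT HFD tumour 5 left 3 members called lower there (4.07% of genes), leaving out WT HFD non-tumour 2 left 4 (4.67%), and a fit on these 6 libraries alone left 1 (1.73%). Whether the tumour difference changed with genotype or diet was tested as an interaction over all 29 libraries: 0 members and 0 genes were called by limma for tissue by genotype (1266 genes at an unadjusted p under 0.05) or tissue by diet (499 genes), and limma-voom also called 0. The largest member estimate was that of Cyp8b1 for tissue by genotype, -1.16 ± 0.65 (SE, adjusted p = 0.595).

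WT HFD tumour 4 was the highest of 13 tumours for 8 of the 10 genes, and neither for Amacr nor for Nr0b2. Cyp8b1 was at 129.6 CPM there, against 2.63 to 21.9 CPM in the other 12 tumours, and Akr1d1 at 164 CPM, against 12.4 to 50.4 CPM. Baat was at 189 CPM, against 48.9 to 119.6 CPM. The same library had the lowest summed level of DEN tumour markers among tumours, 195 CPM, against 15.3 CPM as the median of non-tumour libraries. That sum lay within the non-tumour range, since Gpc3 alone reached 263 CPM in a non-tumour library. The hepatocyte marker sum of WT HFD tumour 4 was likewise the lowest of the tumours, but it lay within the range of the non-tumour libraries. Alb weighs most in that sum, with a mean of 104949 CPM in tumours, against 160 CPM (Asgr1) to 25454 CPM (Apob) for the other markers. Its Spp1 was at 1588 CPM, against 73.5 to 1629 CPM in the other 12 tumours. The other 5 cholangiocyte and progenitor markers summed to 23.8 CPM there, against 9.06 to 37.7 CPM. The part of these marker levels in its member values was not tested. Without it the 12 remaining tumours lay below all 16 non-tumour libraries for Cyp7b1, Cyp8b1, Cyp27a1, Hsd3b7, Akr1d1, Slc27a5 and Baat, as for 7.30% of genes.

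Compared per kilobase of exon, the order of the genes differed between the tissues. In tumours the median levels were 78.4 CPM per kb for Slc27a5, 42.9 for Hsd3b7, 35.3 for Baat, 28.8 for Cyp27a1, 18.9 for Nr0b2, 18.2 for Amacr and 8.87 for Akr1d1, with Cyp7b1 (4.63), Cyp8b1 (3.40) and Cyp7a1 (3.37) at the bottom. In non-tumour liver they were 289.5 CPM per kb for Slc27a5, 184 for Hsd3b7, 183 for Cyp27a1, 142 for Baat, 137 for Cyp8b1, 107 for Cyp7b1, 82.0 for Cyp7a1, 51.0 for Amacr, 48.3 for Akr1d1 and 26.5 for Nr0b2. Neighbours in these orders overlapped in their libraries; the repressor stood last in non-tumour liver, and the 3 regulated cytochromes stood last in tumours.

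The promoters of Cyp8b1 and Nr0b2 are shown because both are known targets of the nuclear receptor NR5A2 and they had the largest and the smallest tumour fold change of the members. RefSeq start sites on GRCm38.p6 were matched for 5 of the 10 genes, and each window holds 250 bases before and 50 after the start. Capitals mark matches to the motifs searched on both strands: CAAGGNCA, read by NR5A2 (LRH-1); CAAAGTCCA, read by HNF4A; the inverted repeat read by FXR (AGGTCA facing its reverse complement across 1 free base); and the TATA box TATAAA.
Cyp8b1 promoter, chr9:121916256-121916555, minus strand: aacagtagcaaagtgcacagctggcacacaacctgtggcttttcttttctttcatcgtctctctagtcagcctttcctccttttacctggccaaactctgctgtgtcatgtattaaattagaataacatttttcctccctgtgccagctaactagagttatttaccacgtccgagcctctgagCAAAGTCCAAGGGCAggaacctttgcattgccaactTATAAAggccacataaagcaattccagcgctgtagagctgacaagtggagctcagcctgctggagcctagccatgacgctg
Nr0b2 promoter, chr4:133553126-133553425, plus strand: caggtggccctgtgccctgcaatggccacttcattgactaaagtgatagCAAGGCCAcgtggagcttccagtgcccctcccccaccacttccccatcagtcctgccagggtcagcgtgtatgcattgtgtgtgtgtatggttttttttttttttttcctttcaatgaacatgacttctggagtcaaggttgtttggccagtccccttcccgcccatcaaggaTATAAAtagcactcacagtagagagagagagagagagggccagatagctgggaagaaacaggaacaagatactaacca
In the Cyp8b1 window the HNF4A match spans positions -67 to -59 and overlaps the NR5A2 match at -60 to -53, with the TATA box at -31 to -26. In the Nr0b2 window the NR5A2 match lies at -201 to -194 and the TATA box at -28 to -23. Of 32851 windows of this length, 6.71% hold the NR5A2 motif, 0.475% the HNF4A motif, 0.00913% the FXR repeat and 13.6% the TATA box. The FXR repeat was not among the letters of these 5 windows. Only exact matches were searched and the repeat is rare in all windows, so this cannot show that an FXR site is lacking. The motifs were chosen after the sequences had been seen, and a match is a description of the letters. In tumours Nr5a2 rose by a log2 fold change of 0.25 ± 0.08 (adjusted p = 0.00927, limma), with 56.6 to 96.9 CPM in tumours and 45.1 to 77.9 CPM in non-tumour liver. Hnf4a did not pass, at 0.10 ± 0.07 (adjusted p = 0.216).

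The wider pathway moved mostly in the same direction, but not throughout. Of 16 other synthesis enzymes limma called 11 lower and 2 higher in tumours, where 27.0% of all genes tested were called lower and 36.6% higher, with a median log2 fold change of -0.85. The largest falls were those of Akr1c6, a liver hydroxysteroid dehydrogenase, at -2.63 ± 0.20 (adjusted p = 3.6e-11), Scp2, the peroxisomal thiolase that ends side-chain shortening, at -2.01 ± 0.09 (adjusted p = 1.36e-14), and Hsd17b4, the enzyme before it, at -1.43 ± 0.08 (adjusted p = 7.41e-13). Akr1c6 was at 66.4 to 808 CPM in tumours and 852 to 1440.1 CPM in non-tumour liver, and Scp2 at 991 to 2093 CPM in tumours and 4015 to 6025 CPM in non-tumour liver, so the tissues did not overlap for either gene.

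Cyp39a1, the hydroxylase for 24-hydroxycholesterol, rose in tumours by a log2 fold change of 2.33 ± 0.22 (adjusted p = 1.34e-09, limma). It was at 51.6 to 156 CPM in tumours (median 75.4) and 7.94 to 35.2 CPM in non-tumour liver (median 14.3), with every tumour above every non-tumour library, as 2.84% of genes tested were. Ch25h, which makes 25-hydroxycholesterol, also rose, by 0.41 ± 0.15 (adjusted p = 0.0201), at 0.155 to 2.27 CPM in tumours and 0 to 1.40 CPM in non-tumour liver, where part of the libraries lie under the limit of 3 counts. Acox2, the peroxisomal oxidase of the side chain, did not pass, at -0.14 ± 0.07 (adjusted p = 0.0827).

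Of 3 genes that supply taurine for Baat, 2 fell and 1 rose in tumours. Csad, the decarboxylase that makes hypotaurine, had a log2 fold change of -3.09 ± 0.21 (adjusted p = 8.03e-12, limma), at 16.5 to 129 CPM in tumours and 121 to 409 CPM in non-tumour liver. Cdo1, the cysteine dioxygenase before it, had -1.29 ± 0.10 (adjusted p = 1.18e-10), at 321 to 749 CPM in tumours and 772 to 1538 CPM in non-tumour liver. The taurine carrier Slc6a6 rose by 0.35 ± 0.12 (adjusted p = 0.012).

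Among 16 regulators of the pathway, Fgf15, the intestinal hormone, was at 0 in all 29 libraries and was not tested. Of the other 15, limma called 10 lower and 1 higher (Nr5a2) in tumours, beside the same 27.0% and 36.6% of all genes. The constitutive androstane receptor Nr1i3 had a log2 fold change of -2.34 ± 0.23 (adjusted p = 3.95e-09), at 13.5 to 62.5 CPM in tumours and 51.7 to 252 CPM in non-tumour liver. Nr1h4, which encodes FXR, had -1.27 ± 0.12 (adjusted p = 7.85e-10), at 34.8 to 103 CPM in tumours and 92.5 to 139.6 CPM in non-tumour liver. Klb, the co-receptor for FGF15, had -0.89 ± 0.14 (adjusted p = 5.53e-06). Its partner Fgfr4 did not pass, at 0.06 ± 0.17 (adjusted p = 0.783).

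**Figure D3:**
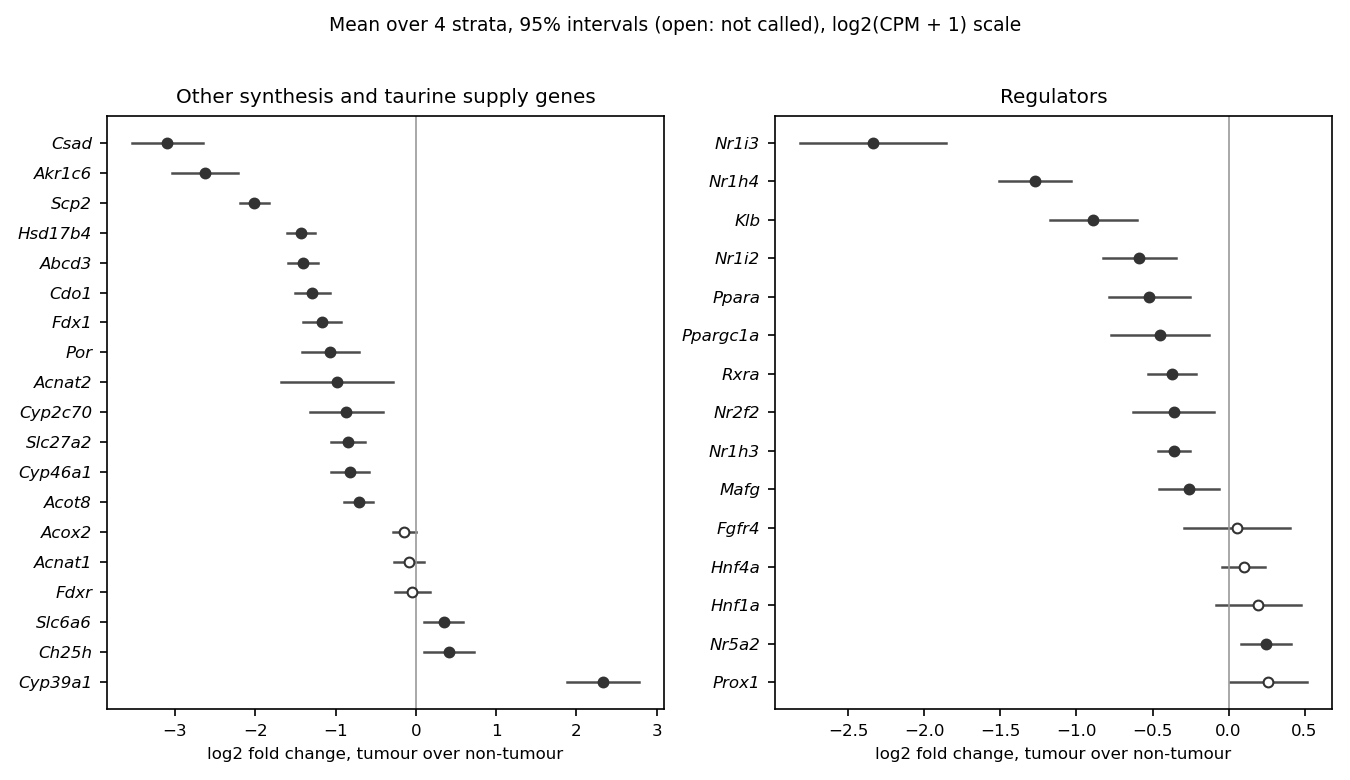
Mean log2 fold change of tumour over non-tumour liver with 95% intervals for the other synthesis and taurine supply genes (left) and the regulators tested (right), on the log2(CPM + 1) scale. Filled points were called. Csad (-3.09) and Nr1i3 (-2.34) are lowest in their panels. Cyp39a1 (2.33) lies furthest right in the left panel, where Ch25h and Slc6a6 were also called higher.

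Other gene groups moved with the same comparison. All 7 male-biased liver genes were lower in tumours (median log2 fold change -3.49; summed 1146 to 5869 CPM in tumours and 5748 to 16561 CPM in non-tumour liver), and 4 of 8 female-biased genes were higher (1174 to 7365 CPM in tumours and 27.4 to 1143 CPM in non-tumour liver). All 8 listed pericentral genes, which mark hepatocytes next to the central vein, were lower (226 to 4097 CPM in tumours and 5410.1 to 12386 CPM in non-tumour liver). Of 8 hepatocyte markers 2 were higher and 4 lower (95426 to 197057 CPM in tumours and 71018 to 106163 CPM in non-tumour liver). Alb and Apob weigh most in these sums, with means of 104949 and 25454 CPM in tumours and 39031 and 23776 CPM in non-tumour liver. Cholangiocyte and progenitor markers were higher in 5 of 6 (87.7 to 1665 CPM in tumours and 24.2 to 139 CPM in non-tumour liver, of which the 5 markers other than Spp1 made 9.06 to 37.7 CPM in tumours and 3.22 to 6.97 CPM in non-tumour liver), and Kupffer cell markers lower in 6 of 6 (88.3 to 393 CPM in tumours and 174 to 1319 CPM in non-tumour liver). Clock genes were higher in 3 and lower in 4 of 14. Of the remaining lists, limma called 1 of 5 sinusoidal endothelium markers lower, 2 of 5 stellate cell markers higher and 2 lower, 1 of 5 T and NK cell markers higher, 0 of 2 neutrophil markers tested (0 also at an unadjusted p under 0.05), and, of 3 enterocyte markers tested, 2 higher and 1 lower. The enterocyte transcription factor Cdx2 was at 0 in all libraries. The part of these groups in the member values was not tested.

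Within each tissue the members differed in how much they varied. In tumours the SD within groups on the log2(CPM + 1) scale was 1.25 for Cyp8b1, 1.15 for Cyp7b1 and 1.05 for Cyp7a1, against a median gene at 0.317. These values include WT HFD tumour 4, where Cyp8b1 was at 129.6 CPM, against 4.99 and 20.5 CPM in the rest of its group. The SD was not recomputed without that library, so the order of these genes may depend on it. In non-tumour liver it was 1.09 for Cyp7a1 and 1.11 for Cyp7b1, larger than for 99.1% and 99.2% of 12732 genes, 0.58 for Cyp8b1 and 0.61 for Nr0b2, against a median gene at 0.259. Cyp27a1 and Baat were steady, at 0.139 each, and 10.4% and 10.6% of genes had a smaller SD.

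Cyp7a1 of the classical route and Cyp7b1 of the alternative route had a higher correlation in tumours than in non-tumour liver. Over the 13 tumours Pearson's r of log2(CPM + 1) was 0.872, and over the 16 non-tumour libraries -0.161. Leaving out 1 library gave 0.785 (without WT HFD tumour 4) to 0.927 in tumours. In non-tumour liver r was 0.177 without IL17RA-/- alcohol non-tumour 2, and 0.394 without non-tumour 2 and 4 of that group, so its sign rests on 1 library. These are descriptions without a test, and libraries of a tissue share groups and depth. Their ratio, Cyp7a1 over Cyp7b1, ran from 0.633 to 3.32 in tumours (median 1.76) and from 0.0749 to 5.25 in non-tumour liver (median 1.96). The lowest ratios were those of IL17RA-/- alcohol non-tumour 2, with 60.8 CPM of Cyp7a1 and 811 CPM of Cyp7b1, and non-tumour 4, with 162 and 588 CPM. Among the 9 enzymes, 36 pairs gave r of 0.456 to 0.938 in tumours (median 0.723, 34 pairs over 0.5) and -0.161 to 0.923 in non-tumour liver (median 0.558, 22 pairs over 0.5). WT HFD tumour 4 was the highest tumour for each of these enzymes but Amacr. Apart from Cyp7a1 with Cyp7b1, the pairs were not recomputed without it. Hsd3b7 and Amacr were close in both tissues, at 0.874 in tumours and 0.923 in non-tumour liver. Cyp7a1 and its repressor Nr0b2 had r of 0.14 in tumours and -0.572 in non-tumour liver. Leaving out 1 library gave 0.00415 to 0.41 (without WT HFD tumour 4) in tumours and -0.625 to -0.435 in non-tumour liver. Without IL17RA-/- alcohol non-tumour 2 and 4 the non-tumour value was -0.372.

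**Figure D4:**
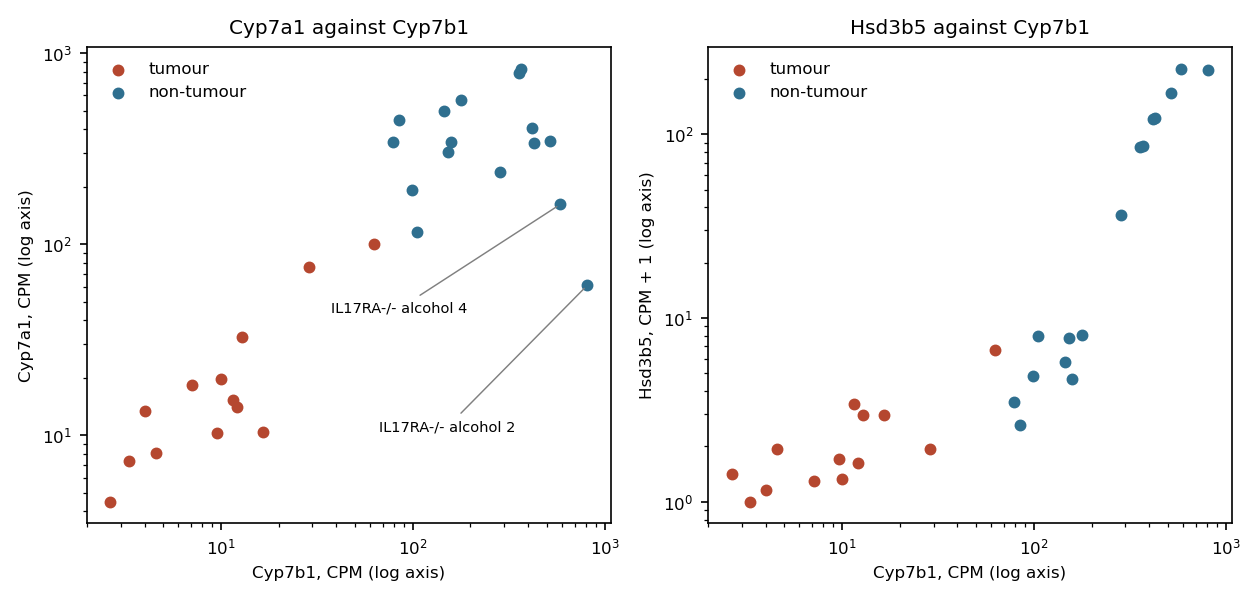
Each point is a library, with Cyp7b1 in CPM on the x axis and Cyp7a1 in CPM (left) or Hsd3b5 in CPM + 1 (right) on the y axis, all log axes, tumours red and non-tumour blue. The 2 named libraries, IL17RA-/- alcohol non-tumour 2 and 4, have high Cyp7b1 with low Cyp7a1, while Hsd3b5 is high where Cyp7b1 is high over the non-tumour libraries (r = 0.970).

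The genes most like each cytochrome over the 16 non-tumour libraries, among 9618 genes at a mean of 5 CPM or more, were different for the 3. For Cyp7b1 they were Ces3b (r = 0.979), Slc22a28 (0.976) and Hsd3b5 (0.970), which had r of 0.792, 0.567 and 0.790 over the 13 tumours. Hsd3b5 is one of the male-biased genes above, and it was at 0 to 5.69 CPM in tumours and 1.60 to 227 CPM in non-tumour liver. For Cyp7a1 they were Stx17 (0.875), Srfbp1 (0.855) and Usp21 (0.828), with 0.371, 0.555 and -0.0314 over tumours. For Cyp8b1 they were Acbd5 (0.861), Mrps35 (0.846) and the bile acid carrier Slc10a1 (0.836), with 0.723, 0.661 and 0.547 over tumours. Slc10a1 was at 9.67 to 121 CPM in tumours (median 32.2) and 157 to 410.3 CPM in non-tumour liver (median 304).

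Genotype was compared within each diet and tissue, and limma called 0 members in any of the 4 comparisons. It called 0 genes in non-tumour liver on alcohol (330 at an unadjusted p under 0.05) or HFD (461) and in tumours on alcohol (261), and 213 of 13269 genes (1.61%) in tumours on HFD (80 higher and 133 lower in IL17RA-/-, which became 416 higher and 200 lower under median-ratio rescaling of the CPM). In tumours on HFD all 10 members had a negative fold change, IL17RA-/- over WT (9 under median-ratio rescaling), with a median of -0.74 against -0.09 for all genes. Without WT HFD tumour 4, 8 members were negative and the median was -0.21 (all genes -0.04). Cyp7a1 was at 7.34, 15.3 and 4.50 CPM in IL17RA-/- tumours, against 100.5, 18.4 and 19.6 CPM in WT tumours, without overlap (log2 fold change -1.92, adjusted p = 0.139). Baat also did not overlap, with 51.97, 66.96 and 65.4 CPM in IL17RA-/- and 189, 68.5 and 82.3 CPM in WT tumours (-0.74, adjusted p = 0.258, and -0.29 without tumour 4); 16.5% of genes had lower, separate groups in this comparison. Cyp8b1 had a log2 fold change of -2.24 (adjusted p = 0.145), which became -1.07 (adjusted p = 0.43) without WT HFD tumour 4 and -3.29 (adjusted p = 0.0191) without WT HFD tumour 5. The Cyp7a1 value without tumour 4 was -1.14 (adjusted p = 0.414).

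In tumours on alcohol 9 members were positive, IL17RA-/- over WT (8 under median-ratio rescaling), with a median of 0.40 against 0.09 for all genes. Leaving out 1 library left 6 (without IL17RA-/- alcohol tumour 7) to 10 positive, and the median was 0.14 without WT alcohol tumour 4 and 0.26 without IL17RA-/- alcohol tumour 7. The test of the difference between diets, genotype by diet in tumours, called 0 members and 0 genes by limma (1757 genes at an unadjusted p under 0.05; 0 by limma-voom). Cyp7a1 had the largest estimate, 3.06 ± 0.98 (SE), with an adjusted p of 0.302, and 2.28 (adjusted p = 0.456) without WT HFD tumour 4. In non-tumour liver genotype by diet called 0 genes (529 at an unadjusted p under 0.05), with Cyp8b1 at -0.54 ± 0.53.

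Diet was tested separately by genotype and tissue (alcohol over HFD), and limma called 0 members in any of these 4 comparisons. Over all genes it called 0 in non-tumour liver of IL17RA-/- (745 at an unadjusted p under 0.05) and WT mice (541), 0 in IL17RA-/- tumours (293) and 1 in WT tumours (0.00754% of 13269). In IL17RA-/- tumours all 10 members were positive, alcohol over HFD, with a median of 0.57 (all genes -0.00431). In WT tumours 1 was positive, with a median of -0.56 (all genes -0.165). The WT HFD tumours in that comparison are also the ones set against IL17RA-/- above. Without WT HFD tumour 4, 4 members were positive in WT tumours and the median was -0.05 (all genes -0.10), and without WT HFD tumour 5 the median was -0.90. Cyp7a1 was at 8.12, 14.1 and 10.5 CPM in WT alcohol tumours, against 100.5, 18.4 and 19.6 CPM in WT HFD tumours, without overlap (log2 fold change -1.56, adjusted p = 0.305, and -0.78 with an adjusted p of 0.7 without tumour 4); 12.1% of genes had lower, separate groups. In non-tumour WT liver all 10 members were positive (median 0.25, all genes -0.0789), against 6 without WT HFD non-tumour 1 (median 0.05). Cyp27a1 was at 393, 403, 412, 406 and 358 CPM on alcohol, against 261, 356 and 314 CPM on HFD, without overlap (0.35, adjusted p = 0.875), a pattern shown by 0.577% of genes.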

How the data were processed

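Polyadenylated RNA of 29 liver libraries was sequenced, per the labels' protocols. Per the submitters' processing notes, the tools included RSEM 1.3.0 and STAR 2.5.1a and the genome was GRCm38; annotation and filters were not given in the sources used here. What the authors deposited was 1 table of CPM with 22187 gene IDs. Values were divided by the CPM that stood for 1 count, which gave the depth. Of the nonzero values, 83.4% to 86.1% per library were then whole counts within 0.002 counts, and the rest were fractions of a count. A level of 3 counts was taken as the floor, for counting error only. GENCODE M21 gave symbols for 21653 IDs; 534 had none and held 0.138% of the CPM.

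Groups and replicate numbers came from the titles. Tests used limma 3.58.1 (R 4.3.3) on log2(CPM + 1) with a variance trend, two-sided, keeping genes that reached 1 CPM in 3 or more of the fitted libraries. Tissue comparisons were fitted on 29 libraries, those within non-tumour liver on 16 and those within tumours on 13. Fold changes on this scale understate the change of low genes. The fit was tested on simulated data with normal noise, the same SD of a gene in all groups and known tumour shifts in some genes. Those data held no outlying library and no unequal spread, so they do not show how the fit handles either. Levels per kb used the exon union of each gene.

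The members, lists and tests were chosen with earlier results of these data known. Named were all members, up to 3 called genes each way per pathway list (Prox1 and others that did not pass are in the plot), and the 3 genes most correlated with each of Cyp7a1, Cyp7b1 and Cyp8b1; Acox2, Hnf4a, Fgfr4 and the genes of the marker lists named were added after their values were seen. The settings varied were the pseudocount (0.1), the filter (none), the scaling (median-ratio), limma-voom on recovered expected counts, the compared groups alone, a replicate block, and leaving out libraries. Deviations of same-numbered libraries correlated in every pair over 0.1 only for the diet comparison in WT non-tumour liver (0.338, 0.268 and 0.134); the labels state no pairing, and the block changed no call there.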

Additional observations from a re-analysis of the deposited data

How the results depend on the processing

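Counts of members called stayed within 1.5 times the reported count in 317 of 322 recomputed counts. Many of these set 0 against 0, since no comparison of genotype or diet and no interaction called a member. No member was positive in tumour over non-tumour comparisons under rescaling or limma-voom. The exceptions among the counts concern HFD. For WT HFD tumours over non-tumour liver, 8 members were called; the compared groups alone gave 1 (413 genes called instead of 2072), and leaving out 1 library gave 3 (without WT HFD tumour replicate 5) to 9. For IL17RA-/- over WT in HFD tumours, leaving out 1 library gave 0 to 1, the 1 being Cyp8b1 without WT HFD tumour replicate 5, where 1174 genes were called instead of 213; median-ratio rescaling called 616 genes and the compared groups alone 5. The cause was not tested. Nr0b2 changed sign in single combinations: in WT alcohol (-0.11) it was 0.095 with the replicate block and -0.57 to 0.25 leaving out 1 library, and in WT HFD (-0.23) it was 0.22 without the 4 doubted libraries and -0.59 to 0.12 leaving out 1 library. Rescaling moved the median of all genes by over 0.1 for IL17RA-/- over WT in HFD non-tumour liver (0.00101 instead of -0.117), alcohol over HFD in WT tumours (-0.0136 instead of -0.165) and both genotype by diet tests (-0.00278 instead of 0.135 in non-tumour liver, 0.0186 instead of 0.173 in tumours).

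With the replicate block, Amacr in IL17RA-/- alcohol tumours was at -0.84 (adjusted p = 0.118) and 8 members were called there instead of 9; a block over all 29 libraries, chosen after seeing the data, called 9 members for the mean over 4 strata (5130 genes called instead of 8637), 9 in IL17RA-/- HFD and 0 for both tissue interactions. In WT HFD it called 4 instead of 8 (702 genes instead of 2072), without Cyp7a1, Cyp8b1, Hsd3b7 and Amacr. The block changed no other call of a member. Outside the WT diet comparison in non-tumour liver, same-numbered libraries correlated at -0.2 to 0.409 and shared only a number. The tissues share no number on HFD, so no HFD tumour was paired with a non-tumour library. Groups of 3 to 5 libraries and the spread of Cyp7a1, Cyp7b1 and Cyp8b1 limit what the comparisons of genotype and diet could detect.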
